A study of Gallus gallus with 8 samples.

Results

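Neurotrophins and their receptors, together with GDNF, CNTF and the receptor subunits GFRA1 and CNTFR, were examined in the retina of chicks. All probe sets whose gene symbol on the platform was BDNF, NTF3, NTRK2, NTRK3, NGFR, GDNF, GFRA1, CNTF or CNTFR were taken, which gave 12 of the 38439 probe sets tested. They covered 8 of the 9 genes, of 13009 genes with a symbol on the array, and no probe set carried the symbol of NTF3, the gene of neurotrophin 3, so that it was not analysed here. White Leghorn chicks aged 9 days were fitted with +6.9 D lenses on both eyes for 24 h or stayed untreated. Each group held 4 chicks, all given as male in the labels, and both retinas of each chick were pooled on 1 array. The control chicks wore no lens of any power, so wearing a lens and the defocus it imposed cannot be told apart.

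Neurotrophins are secreted by neurons and glia and sustain the survival and the synapses of neurons. BDNF acts through the tyrosine kinase TrkB, the product of NTRK2, and neurotrophin 3 through TrkC, the product of NTRK3, while the low-affinity receptor p75, from NGFR, binds the precursors as well. GDNF signals through the membrane-anchored subunit GFRA1 and the kinase RET, and CNTF through CNTFR together with LIFR and IL6ST, and both factors are known for the rescue of photoreceptors and ganglion cells in injured retinas.

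Values were intensities normalized by GC-RMA, and they are given on the log2 scale unless stated otherwise. A probe set was called when its limma p-value, with Benjamini-Hochberg adjustment across the 38439 probe sets, was under 0.06 and the fold change at least 1.5. No probe set of the whole array was called (0%), the smallest adjusted p being 0.0990, and 1741 (4.53%) had an unadjusted p under 0.05. Of the 12 probe sets of these genes 0 were called, 1 had an unadjusted p under 0.05, which was lower in positive lens-treated chicks, and 0 reached 1.5-fold, against 1.15% of all probe sets. In 1 of the 12, again lower, the groups did not overlap. Over all 38439 probe sets this held for 1101 in either direction, and 1.1% were lower in this way. Among the 17945 probe sets with a mean intensity of at least 16 it held for 801. The median difference of the 12 was −0.00033, beside 0.0016 over all probe sets.

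Markers of rods, cones, bipolar, amacrine, horizontal and Müller cells lay at a mean intensity of at least 16 in every case measured, and 5 of 6 ganglion cell markers did so, POU4F2 being below. All positive lens arrays were run on fluidics station 2 and scanned first, and all control arrays on station 1 and scanned afterwards, so station, scan order and treatment cannot be told apart. The labels give all chicks as male, yet the W-linked gene HINTW, which only female birds carry, gave 13.68 to 14.14 on 6 arrays and 5.39 and 4.35 on those of control replicates 2 and 4. Positive lens-treated chicks therefore all had W signal and 2 of 4 control chicks lacked it, and values with a term for W signal are given for genes above an intensity of 16, and for CNTFR, where this term moved them by over 1.5 times or turned their direction. A lens difference with this term sets the 4 lens-treated chicks against control replicates 1 and 3 alone, the 2 controls with W signal. Since whole retinas were measured, fewer cells of a type and less RNA per cell cannot be told apart.

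Only 5 of the 12 probe sets reached a mean intensity of 16. These were one probe set of BDNF, both of NTRK2 and those of NTRK3 and GFRA1. In all, 58.3% of the probe sets of these genes lay below 16, compared with 53.3% of all probe sets. Since binding strength differs from one probe set to the next, the levels of different genes were not ranked.

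**Figure D1:**
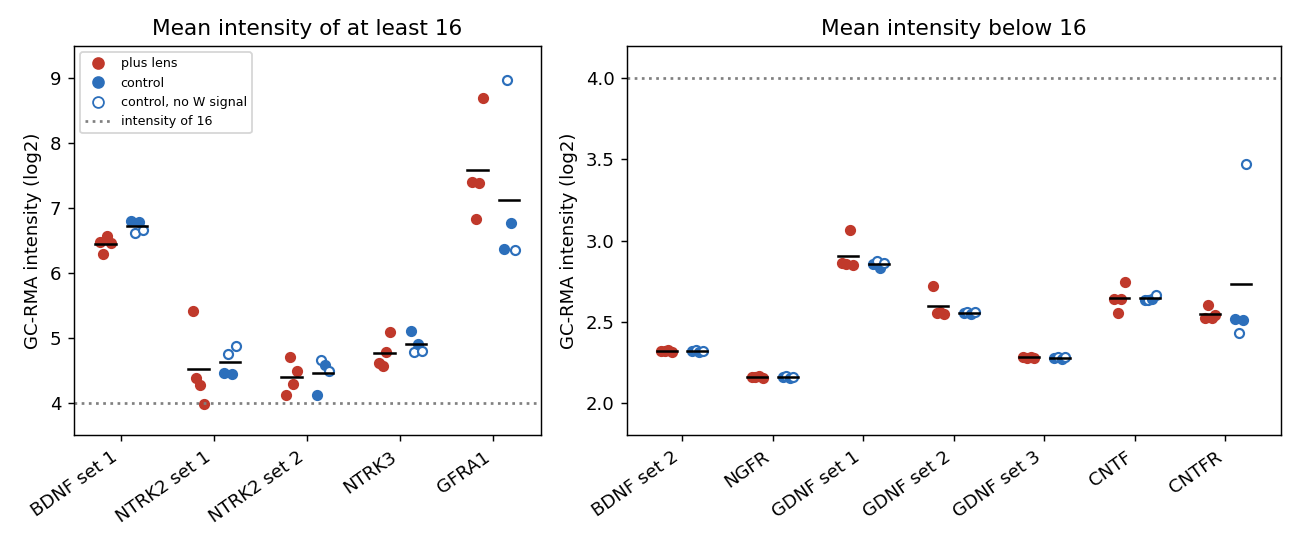
Log2 GC-RMA intensity of each of the 12 probe sets on the 8 arrays, red for positive lens-treated and blue for control chicks, with open circles for the control arrays without W signal; black bars mark group means, the dotted line an intensity of 16, and sets of a gene are numbered by brightness. BDNF set 1 lay lower in all 4 lens-treated chicks, and GFRA1 spread most among arrays.

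BDNF, the ligand of TrkB, had the smallest p-value of these genes, although it did not pass the threshold. Its brighter probe set read 6.48, 6.29, 6.57 and 6.46 in the positive lens-treated chicks, replicates 1 to 4. In the control chicks it read 6.80, 6.62, 6.79 and 6.66. Every lens-treated chick lay below every control chick, the nearest values being 6.57 and 6.62. The mean log2 intensity was 6.45 ± 0.12 (SD, n = 4) with lenses and 6.72 ± 0.091 (SD, n = 4) in controls, a mean linear intensity of 96.5 over all arrays. The difference was −0.27 (SE 0.0702, 95% interval −0.44 to −0.10), a 1.21-fold lower level.

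By limma with Benjamini-Hochberg adjustment the adjusted p of BDNF was 0.964, and the unadjusted p was 0.00696. An exact two-sided permutation test gave 0.0286, the smallest p that 4 against 4 arrays allow. With a term for W signal, and so against control replicates 1 and 3 alone, the difference was −0.35 (SE 0.0749). The controls without W signal, replicates 2 and 4, which this value leaves out, held the lowest BDNF values of their group. Summed intensities of the cone markers moved the same way as BDNF. All 3 measured cone markers lay above 16, their summed level was 14.77 to 15.02 with lenses and 15.17 to 15.27 in controls, and the difference was −0.35 (exact two-sided permutation p = 0.0286). Of the cell type marker lists summed in this way, cones alone reached this p, and such a sum is weighted to its brightest genes. GNAT2, on the cone list, was lower on arrays in the paper, but its real-time RT–PCR did not show this. By the paper's account GNAT2 was among genes with several probe sets, of which a single one differed. Each gene entered the cone sum by its brightest probe set. The share of GNAT2 in the lower sum was not worked out, so the sum does not show that the other cone markers were lower. The part of cone RNA in the BDNF difference was not tested.

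The other BDNF probe set lay at a mean intensity of 4.99, near background on all 8 arrays. It read between 2.31 and 2.33, and the difference between the group means was −0.00054. BDNF is therefore described by the brighter probe set.

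Across the 8 arrays, the probe sets whose values followed BDNF most closely were those of NFU1, an iron-sulfur cluster protein (Pearson's r = 0.950), of ATG4B, a protease of autophagy (0.949), and of RCAN3, a regulator of calcineurin (0.946). They were the top of 14612 probe sets compared, on arrays shared by all of them, and with 8 arrays such values describe these arrays alone.

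GDNF was measured by 3 probe sets, all below an intensity of 16. The brightest read 2.86, 2.86, 3.06 and 2.85 with lenses and 2.86, 2.88, 2.83 and 2.86 in controls, so that a single lens-treated chick stood above the rest. The other 2 probe sets had mean intensities of 5.96 and 4.85. All 3 differences were small, from 0.0026 to 0.05, and the largest rested on replicate 3, without which it was −0.00023.

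CNTF, a cytokine of the interleukin-6 family, was also near background. Its probe set read 2.64, 2.56, 2.64 and 2.75 with lenses and 2.64, 2.64, 2.64 and 2.67 in controls. The groups overlapped, the mean intensity was 6.26, and the means differed by 0.0021 (SE 0.0379). At such intensities, changes in GDNF and CNTF mRNA were not detectable with these probe sets, which does not show that they were absent.

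NTRK2, the receptor of BDNF, was measured by 2 probe sets slightly above 16, with mean intensities of 24.8 and 21.8. The first read 5.42, 4.38, 4.28 and 3.98 in lens-treated chicks and 4.46, 4.75, 4.44 and 4.87 in control chicks. Lens-treated replicate 1 lay above all other arrays and the other 3 lens-treated chicks lay below all controls, so the groups overlapped through a single chick. The mean was 4.51 ± 0.62 (SD, n = 4) with lenses and 4.63 ± 0.21 (SD, n = 4) in controls. The difference of −0.12 (SE 0.313, 95% interval −0.86 to 0.63) did not pass (limma adjusted p = 0.996, exact two-sided permutation p = 0.800). Without lens-treated replicate 1 it was −0.42 (limma adjusted p = 1), and with a term for W signal it turned to 0.06.

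The second NTRK2 probe set did not repeat the high value of replicate 1. It read 4.12, 4.70, 4.29 and 4.50 with lenses and 4.12, 4.66, 4.58 and 4.50 in controls. Lens-treated replicate 1 was here the lowest of its group. The difference was −0.06 (SE 0.166, 95% interval −0.46 to 0.33), with a limma adjusted p of 0.996, and it turned to 0.05 with a term for W signal. The 2 probe sets thus ordered the chicks differently, and NTRK2 is described by both.

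NTRK3, which encodes TrkC, read 4.62, 4.57, 4.78 and 5.09 in lens-treated chicks. Control chicks read 5.11, 4.78, 4.91 and 4.80. Of the lens-treated chicks 3 lay at or below the lowest control and replicate 4 lay above 3 of the controls, which made the groups overlap. The difference was −0.14 (SE 0.133, 95% interval −0.45 to 0.18) with a limma adjusted p of 0.979 and an exact two-sided permutation p of 0.286. It was −0.25 without lens-treated replicate 4 (limma adjusted p = 0.947), and −0.25 also with a term for W signal (limma adjusted p = 0.880).

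NGFR, which encodes p75, gave 2.15 to 2.16 on every array and a mean intensity of 4.47. No level above background was seen in either group. A difference in p75 mRNA could not be measured with this probe set.

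**Figure D2:**
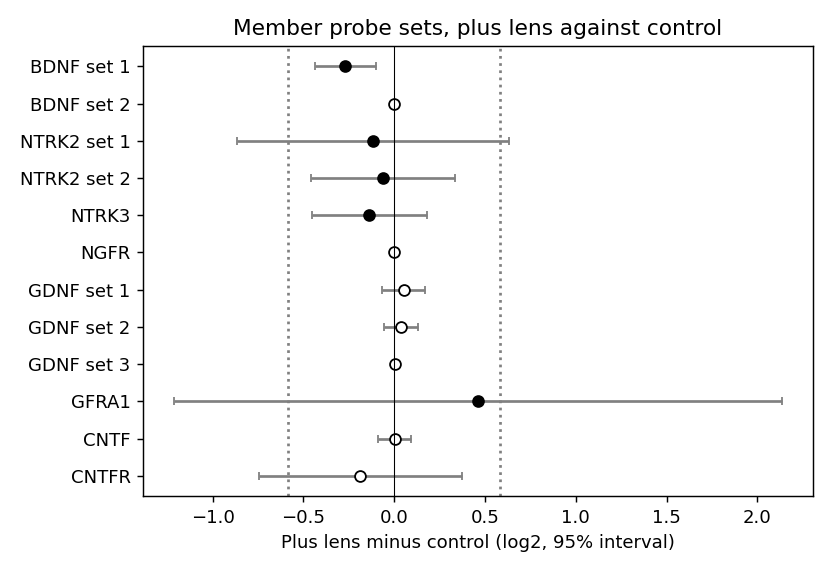
Difference in log2 intensity, positive lens minus control, with its 95% interval from limma for each of the 12 probe sets; those below a mean intensity of 16 are drawn as open circles and dotted lines mark 1.5-fold. Of all intervals that of BDNF set 1 (−0.44 to −0.10) did not include 0, and that of GFRA1 (−1.21 to 2.14) was the widest.

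GFRA1, the subunit that binds GDNF, had a mean intensity of 206 and varied most among arrays of the 12 probe sets. It read 7.40, 6.84, 7.40 and 8.69 in the positive lens-treated chicks. In control chicks it read 6.37, 8.98, 6.78 and 6.35. The highest and the lowest of the 8 values were both controls, and the whole range was 2.63, or 6.20-fold. Apart from control replicate 2, every control lay below every lens-treated chick.

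The group means of GFRA1 were 7.58 ± 0.79 (SD, n = 4) with lenses and 7.12 ± 1.26 (SD, n = 4) in controls. They differed by 0.46 (SE 0.702, 95% interval −1.21 to 2.14), which was less than the spread in either group (limma adjusted p = 0.996, exact two-sided permutation p = 0.514). Single chicks decided this value. Without control replicate 2 it was 1.08 (limma adjusted p = 0.931), and without lens-treated replicate 4 it was 0.09. With a term for W signal it was 1.01 (SE 0.845), and control replicates 2 and 4, both without W signal, were the highest and the lowest of all arrays.

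RET, the kinase that GFRA1 presents GDNF to, was chosen for comparison after its values were seen. Its brightest probe set read 7.25, 7.39, 7.32 and 7.61 with lenses and 6.88, 7.43, 6.92 and 7.15 in controls. As with GFRA1, lens-treated replicate 4 and control replicate 2 were the highest of their groups. The RET difference was 0.30 (SE 0.141, limma adjusted p = 0.979, exact two-sided permutation p = 0.143), and 0.49 (SE 0.124, limma adjusted p = 0.880) with a term for W signal. The other RET probe sets differed by 0.07 and 0.0046, at mean intensities of 17.9 and 6.50. Over the 8 arrays GFRA1 and RET correlated with Pearson's r = 0.776. RET ranked 118 among 14612 probe sets by its correlation with GFRA1, and the list was led by LTBP1, a binding protein of latent TGF-beta (0.933), the caspase CASP2 (0.925) and ANKRD13C (0.918), all described after the values of GFRA1 had been seen.

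**Figure D3:**
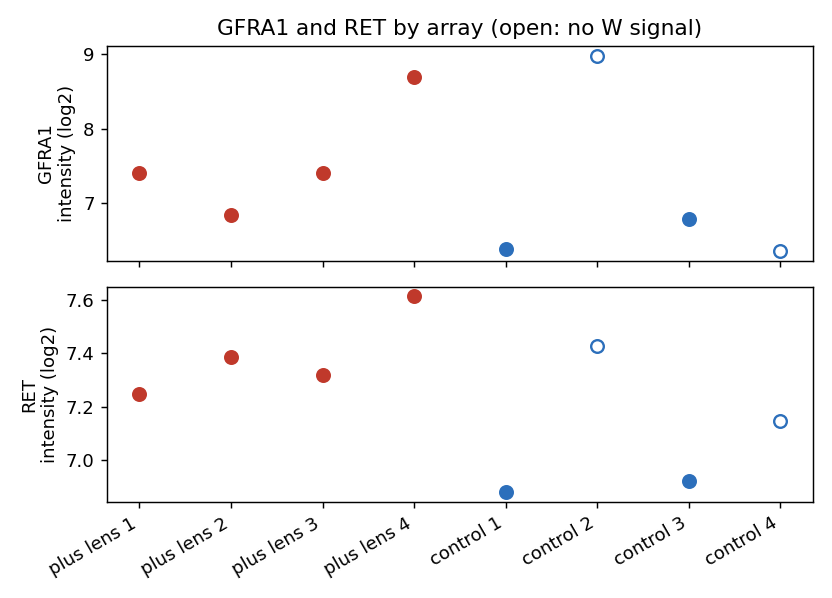
Log2 intensity of the brightest probe sets of GFRA1 (top) and RET (bottom) on each of the 8 arrays, red for positive lens-treated and blue for control chicks, open where W signal was absent. Both genes were highest in lens-treated replicate 4 within the lens group and in control replicate 2 within the control group.

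CNTFR, the receptor subunit specific for CNTF, was near background on 7 arrays. It read 2.52, 2.60, 2.52 and 2.54 with lenses. In controls it read 2.52, 2.43, 2.51 and 3.47. Control replicate 4 alone stood apart, still below the log2 value of 4 that corresponds to an intensity of 16. The difference of −0.19 (SE 0.234, limma adjusted p = 0.985) became 0.06 without this chick and 0.03 with a term for W signal.

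NTRK2, GDNF and CNTFR lie on the Z chromosome, as do the CNTF co-receptors LIFR and IL6ST, whereas BDNF and CNTF lie on chromosome 5, GFRA1 and RET on chromosome 6, NTRK3 on chromosome 10 and NGFR on chromosome 27 of the RefSeq annotation. Male birds carry 2 Z chromosomes and females 1, and birds compensate for this only in part. The 2 arrays without W signal were therefore set against the 6 with it. This split comes from HINTW and is not a group of the study, and it compares 2 control chicks with 2 control and 4 lens-treated chicks, so the fit also held a term for the lens. Over all 38439 probe sets, 151 (0.393%) had a limma adjusted p under 0.05 for W signal. Among 615 Z-linked probe sets with a mean intensity of at least 16 the median difference was 0.52 (quartiles 0.22 and 0.77), 88.9% were higher without W signal and 77 (12.5%) passed. The median over 13826 autosomal probe sets of this brightness was −0.02.

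Neither NTRK2 probe set passed this test. For the first, the mean was 4.81 in the 2 chicks without W signal, 4.49 in the 6 with it and 4.45 in the 2 controls with it. The 2 chicks without W signal, at 4.75 and 4.87, lay above 5 of the 6 others, and lens-treated replicate 1 at 5.42 was the exception. The plain difference of 2 against 6 chicks was 0.32, with an exact two-sided permutation p of 0.429 over all choices of 2 of the 8 arrays, which ignores the lens groups and cannot go below 0.0357. With the lens term the fitted difference, without minus with W signal, was 0.36 (SE 0.456, limma adjusted p = 0.843). As every lens-treated chick had W signal, this fitted value is the difference between the 2 controls without and the 2 controls with it.

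In the second NTRK2 probe set the chicks without W signal read 4.66 and 4.50 and lay within the range of the others, 4.12 to 4.70. The fitted difference was 0.23 (SE 0.235, limma adjusted p = 0.843), and the plain difference of 2 against 6 was 0.20 (exact two-sided permutation p = 0.357). Both values were below the Z-linked median of 0.52, with 35.8% and 26.2% of the 615 bright Z-linked probe sets lower than the first and the second.

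Of the 6 Z-linked probe sets of these genes, 0 passed for W signal. The 3 of GDNF were near background, with differences from 0.0062 to 0.02. CNTFR differed by 0.44 (SE 0.309, limma adjusted p = 0.843). This rested on control replicate 4, since control replicate 2, which also lacked W signal, gave the lowest CNTFR value of all arrays. The CNTF co-receptor LIFR, chosen after its values were seen, differed between lens groups by 0.01 (SE 0.107, limma adjusted p = 0.998), and by 0.18 (SE 0.0650, limma adjusted p = 0.880) with a term for W signal. It read 9.93, 9.78, 9.94 and 10.01 with lenses and 9.74, 10.04, 9.73 and 10.12 in controls. The 2 chicks without W signal, at 10.04 and 10.12, lay above all 6 others, with a fitted difference of 0.35 (SE 0.0750, limma adjusted p = 0.307) and a plain difference of 0.23 (exact two-sided permutation p = 0.0714). The other CNTF co-receptor, IL6ST, was near background at a mean intensity of 7.76.

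**Figure D4:**
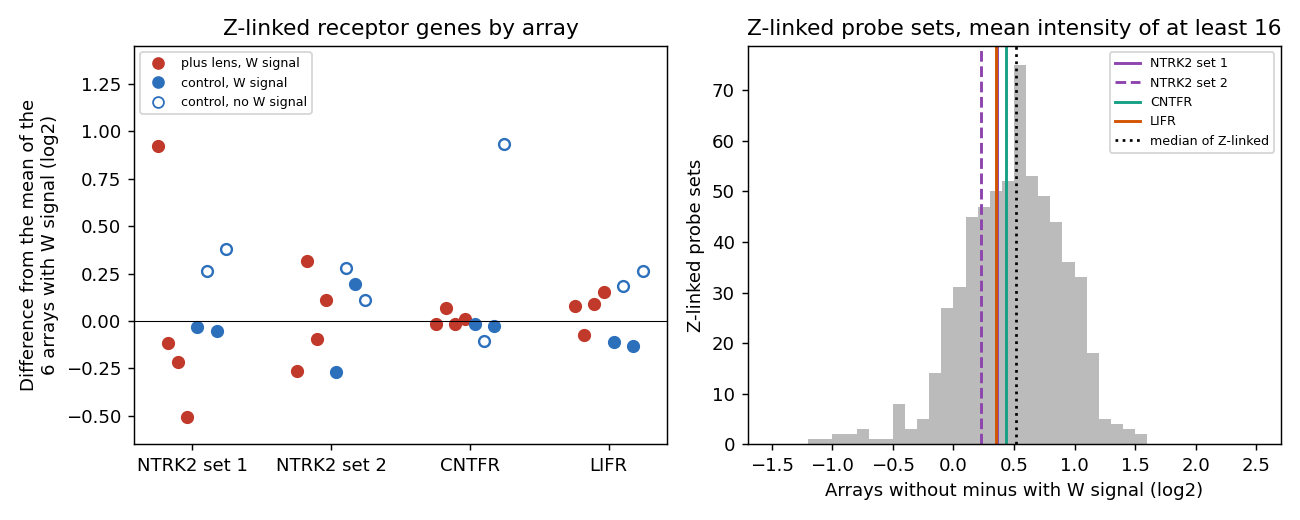
Left, log2 intensity of Z-linked NTRK2 (2 probe sets), CNTFR and LIFR by array, relative to the mean of the 6 arrays with W signal; right, number of the 615 Z-linked probe sets of at least 16 by their fitted difference without minus with W signal, lines marking NTRK2, CNTFR, LIFR and the median of 0.52. Both NTRK2 probe sets (0.36 and 0.23) lay below the median; CNTFR, below 16 in mean intensity, is not part of the 615.

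The probe sets most like the first NTRK2 probe set over the 8 arrays were those of FTL, a ferritin subunit (Pearson's r = 0.986), of UST, a sulfotransferase (0.943), and of the mitochondrial carrier SLC25A25 (0.933), of 14611 compared. The high NTRK2 value of lens-treated replicate 1, 5.42, weighs heavily in these correlations. RET, LIFR, BDNF and GFRA1 were not among the closest, and their correlations with the first NTRK2 probe set were −0.229, 0.239, 0.0584 and −0.155.

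Beyond these genes, 104 others of the same pathways were listed by role, and 75 had a probe set with their symbol, each gene being represented by its brightest. None of the 75 was called, and 8 had an unadjusted p under 0.05, 2 higher and 6 lower with lenses, against 6.44% of 13009 genes taken in the same way. In 6 of the 75 the groups did not overlap, 3 in each direction, against 3.48% of all genes. EGR1, DUSP4 and DUSP6 were put on the list with their values in these arrays known. They are among the 8 and are the 3 that were lower without overlap. The counts are therefore no evidence of an excess over these shares. The median difference of the list was 0.0029, beside 0.0013 over all genes.

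Of the other ligands, 2 of 14 were measured. LIF was near background at a mean intensity of 5.63. IL6, named after its values were seen, read 7.19, 4.37, 7.33 and 7.76 with lenses and 8.20, 7.74, 7.85 and 8.28 in controls. Lens-treated replicate 2 was far below the rest and the groups overlapped only at 7.76 against 7.74, and the difference was −1.36 (SE 0.744, limma adjusted p = 0.979). Without that chick it was −0.59 (limma adjusted p = 0.932). The other IL6 probe sets lay near background, at mean intensities of 5.57 and 5.18, and differed by −0.24 and 0.05. Of 16 receptors measured of 19 listed, 0 had an unadjusted p under 0.05 and their median difference was 0.0034. In LINGO1, a co-receptor of p75, named after its values were seen, the groups did not overlap, with a higher level by 0.10 (SE 0.0531) in lens-treated chicks and an unadjusted limma p of 0.107. It was 0.15 with a term for W signal and 0.05 without control replicate 1, and the other LINGO1 probe sets differed by −0.12 and 0.02, at mean intensities of 87.4 and 5.17.

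In the group of signaling genes, 35 of 47 were measured and 2 had an unadjusted p under 0.05. KIDINS220, a scaffold substrate of Trk receptors, read 12.64, 12.57, 12.62 and 12.53 with lenses and 12.41, 12.52, 12.43 and 12.33 in controls. Every lens-treated chick lay above every control, by as little as 12.53 against 12.52, and the difference was 0.17 (SE 0.0433, limma adjusted p = 0.964). The other KIDINS220 probe sets differed by 0.07, 0.52 and 0.31, all higher with lenses. SOS2, an exchange factor that activates RAS, differed by 0.11 (SE 0.0461, adjusted p = 0.979), by 0.05 with a term for W signal and by 0.07 without control replicate 4. Its other probe set above 16 differed by −0.02. GRB2, an adaptor protein named after its values were seen, was counted by its brightest probe set, which differed by −0.03 (SE 0.0589). Another GRB2 probe set, at a mean intensity of 92.1, differed by 0.59 (SE 0.166, limma adjusted p = 0.964), without overlap between groups. The remaining one, at 320, differed by 0.03. The paper gave GRB2 as higher with lenses on arrays and by real-time RT–PCR.

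Of the 10 genes listed under processing 9 were measured, and 2 had an unadjusted p under 0.05, both lower with lenses. Besides genes that process these factors, this list held members of the SLITRK family. SLITRK1, a neuronal membrane protein of the SLITRK family, differed by −0.23 (SE 0.0936), while its other probe sets, at mean intensities of 331 and 270, differed by 0.17 and −0.09. PCSK1, a Z-linked convertase of prohormones, differed by −0.59 (SE 0.241) at a mean intensity of 16.3. The limma adjusted p of SLITRK1 and of PCSK1 was 0.979, and the groups of both overlapped.

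Genes that respond to these factors, 13 measured of 14, held 4 of the 8 with an unadjusted p under 0.05, all lower with lenses. EGR1, an immediate early transcription factor, read 9.53, 9.73, 9.54 and 9.16 with lenses and 10.85, 11.04, 10.80 and 10.81 in controls. All lens-treated chicks lay below all controls, with a difference of −1.39 (SE 0.125) and a limma adjusted p of 0.0990, and its other probe set differed by −1.43. The paper, under the name ZENK, had EGR1 in its list of differentially expressed genes from these arrays. DUSP4, a phosphatase of MAP kinases, read 3.43, 4.16, 4.84 and 4.47 with lenses and 5.18, 5.55, 5.52 and 5.97 in controls. It was again without overlap, with a difference of −1.33 (SE 0.322, adjusted p = 0.949), and its other probe set above 16 differed by −0.81. The paper, under the name MKP2, gave DUSP4 as lower on the arrays, by the 1.75-fold seen here in this dimmer probe set. Its real-time RT–PCR of this gene was also lower but did not reach significance, with primers in another region than the array probes. DUSP6, a phosphatase of ERK, also did not overlap and differed by −0.38 (SE 0.0879, adjusted p = 0.916). VIP, the vasoactive intestinal peptide of amacrine cells, differed by −0.53 (SE 0.218, adjusted p = 0.979). Other stimuli also act on these genes. EGR1 and the DUSP genes were put on the list with their values in these arrays known. Their count is therefore not independent evidence of a direction or of an excess. Among the rest of this group, FOS and ARC lay near background and SPRY1, SPRY2, SPRED1, JUN, NPTX2, GFAP and NPY did not reach an unadjusted p of 0.05.

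**Figure D5:**
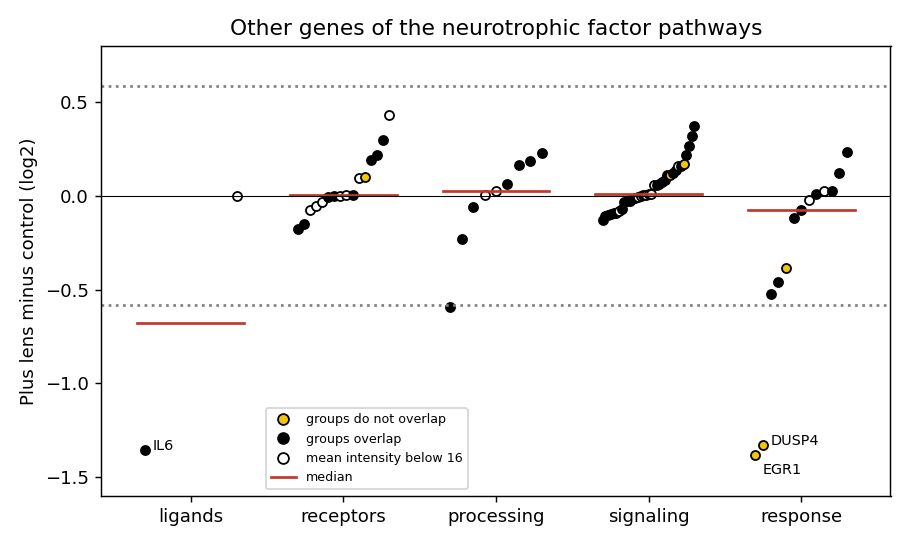
Difference in log2 intensity, positive lens minus control, for 75 other genes of the neurotrophic factor pathways by role, 1 probe set a gene; dotted lines mark 1.5-fold, red bars medians, yellow points genes whose groups did not overlap and open points a mean intensity below 16. EGR1 (−1.39), DUSP4 (−1.33) and IL6 (−1.36, or −0.59 without lens-treated replicate 2) lay farthest from 0, and the medians of receptors and signaling genes lay at 0.0034 and 0.0074.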

How the data were processed

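RNA of both retinas of each chick was hybridized to 1 Affymetrix Chicken Genome array. The deposited values are linear intensities, normalized by the authors with GC-RMA, whose version the sources used here do not give. The deposited array records (other values) gave fluidics station, module and scan order only. After 96 control probe sets were left out, log2 intensities of 38439 were fitted without further scaling, floor or filter by limma 3.58.1 in R 4.3.3, with eBayes and Benjamini-Hochberg adjustment. Symbols came from the platform annotation, a single one for 27168 probe sets, and chromosomes from the RefSeq gene table. W signal was split at the midpoint of the brighter HINTW probe set. Exact permutation tests used all 70 relabelings, or 28 choices of 2 arrays. A gene's brightest probe set stood for it. Arrays carry no read depth, and their number limits the precision.

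The members and lists were chosen with earlier results of these data known. Named genes were all members, HINTW, up to 8 genes of the pathway list with an unadjusted p under 0.05, 1.5-fold or no overlap, by smallest p, and the 3 probe sets most like NTRK2 and BDNF. RET, LIFR, IL6, LINGO1, GRB2 and GNAT2 were named outside this rule. So were the response genes near background or without a call and the probe sets most like GFRA1. All of these were named after their values were seen. The steps were tested on simulated data. Other settings tried were array weights, a trended and robust eBayes, the t-test of the methods, quantile normalization, median centring, a floor of 16, a filter at 16, a replicate block, W signal as a term, the control arrays without W signal left out, and each array left out in turn. For BDNF, NTRK2 and GDNF the mean of all probe sets of the gene was also tried. The chicks are separate animals by the labels, so the spread is that between chicks.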

Additional observations from a re-analysis of the deposited data

Results flagged for a closer look

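Within a group of 4 arrays, single chicks stood apart by Dixon's ratio at its 95% critical value in 6 of the 24 groups tested, 2 for each of the 12 probe sets. Chance alone flags about 1 in 20 groups of normally distributed values. Values near the floor, and several probe sets of the same gene, need not follow this share. The GFRA1 probe set read 8.98 in control replicate 2, against 6.35 to 6.78 in the other controls, and is the only one of the 6 with a mean intensity of at least 16. CNTFR read 3.47 in control replicate 4, against 2.43 to 2.52 in the others. The brightest GDNF probe set read 3.06 in lens-treated replicate 3, against 2.85 to 2.86, and another read 2.72 in lens-treated replicate 1. That second GDNF probe set read 2.55 in control replicate 3, a gap of 0.0094 to the nearest control, and CNTF read 2.66 in control replicate 4, a gap of 0.03.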

How the results depend on the processing

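Over 12 probe sets and 205 alternatives, 0 values for lens treatment passed the thresholds. Of the 92 values for the 5 probe sets above 16, 7 turned direction, all in NTRK2, and of the 113 for the 7 dimmer ones 22 did, 3 of them in CNTFR. Single arrays left out and the W term were added after seeing the data for pathway genes given with a difference, other than GRB2. Of these, LIFR alone turned, to −0.001869 and −0.02376 without lens-treated replicates 3 and 4 and to −0.0483 and −0.05387 without control replicates 1 and 3. Its range with arrays left out went up to 0.07873. BDNF stayed lower in all 19 alternatives, from −0.35 to −0.14, and from −0.31 to −0.22 with single arrays left out. The value of −0.14 is for the mean of both its probe sets, of which the dimmer lay near background. As every lens-treated chick lay below every control, leaving arrays out could not turn the direction of BDNF. The first NTRK2 probe set turned to 0.06437 with a term for W signal and likewise without the controls lacking it, and with arrays left out it ranged from −0.4175 to 0.06007, the ends being without lens-treated replicates 1 and 4. The second turned to 0.05259 in both W settings, to 0.03173 without lens-treated replicate 1 and to 0.003654 without control replicate 2, in a range from −0.1783. For W signal, the second turned to −0.1649 with the replicate block and to −0.001357 without control replicate 1, in a range up to 0.4622. The first ranged from 0.30 to 1.03, the latter with the block. The cause was not tested. Same-numbered arrays were run on the same module number of their fluidics stations, but did not deviate together (correlations of −0.0134 to 0.111). With the block BDNF stayed at −0.27 (limma adjusted p = 0.480), and 0 of 38439 probe sets passed for W signal. The count called over all probe sets was 1 with dim probe sets filtered, 3 with the W term and 0 to 1 with arrays left out (1 without lens-treated replicate 4 and without control replicate 1), none of them a member. At an unadjusted p under 0.05 and 1.5-fold it was 162, 287 with array weights, 106 with the floor, and 133 to 333 with arrays left out, 333 without control replicate 1 and 246 without control replicate 3. Members under an unadjusted 0.05 numbered 1 to 2 with arrays left out, 2 without lens-treated replicate 1 (NTRK2) or 4 (NTRK3). Members without overlap numbered 3 without the controls lacking W signal and 1 to 2 with arrays left out. Smaller groups fail to overlap more easily, and the share over all probe sets was not computed for these settings. No gain is therefore read from these counts. In the pathway list, 1 gene, EGR1, was called with dim probe sets filtered, and 4 instead of 8 had an unadjusted p under 0.05 by the methods' t-test, 4 with the floor and 5 to 9 with arrays left out. The 151 probe sets past the threshold for W signal became 287 without the lens term, 4 in controls only, 86 with array weights, 44 with the floor and 75 to 947 with arrays left out. Of Z-linked members 0 to 1 passed with arrays left out, the 1 being CNTFR (0.96) without control replicate 2, where control replicate 4 alone stood for chicks without W signal. Most probe sets of GDNF, CNTF, CNTFR and NGFR sat at the floor of the assay, where neither presence nor absence of a change could be measured.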
